A study of Homo sapiens with 6 samples.

Results

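The genes described here are the replication-dependent histone genes, which encode the linker histone H1 and the core histones H2A, H2B, H3 and H4. Of the 63299 genes in the count table, 75 were taken by name as histone genes of clusters 1 to 4 on the main chromosomes, with pseudogene names left out. They comprised 6 H1, 17 H2A, 23 H2B, 14 H3 and 15 H4 genes. Cluster 1 on chromosome 6 held 55 of them, cluster 2 on chromosome 1 held 15, cluster 3 on chromosome 1 held 4, and cluster 4 on chromosome 12 held 1. GENCODE 29 types 69 of the 75 as protein coding and 3 (HIST3H2BA, HIST2H2BA and HIST2H2BB) as pseudogenes, and 3 versioned identifiers (HIST1H2BA, HIST2H2BC and HIST2H2BD) had no match there.

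Gene expression was measured by RNA sequencing in LNCaP, a human prostate cancer cell line. The cells carried a short hairpin RNA against MEP50 that is switched on by Dox (doxycycline). The knockdown group was 3 libraries of cells given Dox, and the control group was 3 libraries of the same cells without Dox, each numbered 1 to 3. No library used here received Dox without the hairpin, so an effect of Dox and an effect of MEP50 loss cannot be told apart. MEP50, encoded by WDR77, is the partner subunit of the arginine methyltransferase PRMT5, whose substrates include histones H2A, H3 and H4.

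Core histones form the protein spool around which DNA is wound, and linker histone H1 binds where DNA enters and leaves it. Cells make most of their histones in S phase, when new DNA has to be packaged, from many gene copies that lie in clusters and have no introns. The mRNAs of these genes usually end in a conserved stem-loop and carry no poly(A) tail, and SLBP binds the stem-loop during processing, translation and decay. Some copies can also be made as polyadenylated transcripts that run past the stem-loop.

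The stem-loop is shown first because it is the feature that sets these mRNAs apart. It was present both in genes that passed the test for a decrease in the knockdown and in genes that did not. The 26-base windows below are from GENCODE 29 transcripts, sense strand, with the 16 stem-loop bases in capitals. HIST1H2AE, HIST1H2BL, HIST1H3H and HIST1H4E were lower in the knockdown, while HIST3H2A, HIST1H2BE, HIST1H3E and HIST2H2BE did not pass the test for a decrease.
HIST1H2AE: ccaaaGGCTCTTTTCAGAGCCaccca
HIST1H2BL: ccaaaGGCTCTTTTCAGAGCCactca
HIST1H3H: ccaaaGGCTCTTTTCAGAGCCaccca
HIST1H4E: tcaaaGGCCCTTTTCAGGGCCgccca
HIST3H2A: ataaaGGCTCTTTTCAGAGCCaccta
HIST1H2BE: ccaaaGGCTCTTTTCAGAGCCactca
HIST1H3E: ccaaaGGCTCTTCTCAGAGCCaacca
HIST2H2BE: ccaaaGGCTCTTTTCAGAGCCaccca

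HIST1H2AE, HIST1H3H and HIST2H2BE had the same 26 letters, and so did HIST1H2BL and HIST1H2BE. A stem-loop with at most 2 mismatches was sought in the first 150 bases after the stop codon, and 36 of the 75 genes had an annotated 3' untranslated region of at least 16 bases, the length of the stem-loop, in which to look. It was found in 29 of these, in 7 of 7 H2A, 11 of 12 H2B, 6 of 6 H3, 5 of 9 H4 and 0 of 2 H1 genes. The copies began 23 to 68 bases after the stop codon, 17 of them with 0 mismatches, 7 with 1 and 5 with 2. All 5 with 2 mismatches were H4 genes, as the HIST1H4E window shows. No match says only that these letters were not in the annotated transcript.

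The promoters below, 250 bases before to 50 bases after the RefSeq start on GRCh38.p14, are shown to set an H2B gene that was far lower in the knockdown beside an H2A gene that was not, and an H3 beside an H4 gene. Capitals mark the word TATAAA, the word CCAAT on either strand (ATTGG when reversed) and the octamer ATTTGCAT on either strand.
HIST1H2BM, chr6:27814772-27815071, plus strand: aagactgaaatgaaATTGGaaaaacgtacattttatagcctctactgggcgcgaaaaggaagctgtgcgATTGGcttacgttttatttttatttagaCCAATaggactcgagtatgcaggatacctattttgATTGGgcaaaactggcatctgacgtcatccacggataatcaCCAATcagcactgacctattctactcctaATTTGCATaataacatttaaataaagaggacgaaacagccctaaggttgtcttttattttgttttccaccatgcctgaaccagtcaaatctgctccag
HIST3H2A, chr1:228457824-228458123, minus strand: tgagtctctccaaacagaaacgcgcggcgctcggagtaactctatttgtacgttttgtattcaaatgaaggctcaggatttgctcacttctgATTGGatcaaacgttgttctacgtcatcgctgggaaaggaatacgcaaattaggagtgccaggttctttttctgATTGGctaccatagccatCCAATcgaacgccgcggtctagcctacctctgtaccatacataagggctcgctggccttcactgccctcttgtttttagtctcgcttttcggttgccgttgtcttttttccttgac
HIST1H3H, chr6:27809801-27810100, plus strand: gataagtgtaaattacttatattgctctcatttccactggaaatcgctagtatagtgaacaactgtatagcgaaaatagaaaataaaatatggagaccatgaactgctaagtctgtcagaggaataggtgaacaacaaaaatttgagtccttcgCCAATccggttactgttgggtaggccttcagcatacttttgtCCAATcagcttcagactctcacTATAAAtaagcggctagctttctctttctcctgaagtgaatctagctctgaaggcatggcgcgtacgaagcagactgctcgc
HIST1H4E, chr6:26204360-26204659, plus strand: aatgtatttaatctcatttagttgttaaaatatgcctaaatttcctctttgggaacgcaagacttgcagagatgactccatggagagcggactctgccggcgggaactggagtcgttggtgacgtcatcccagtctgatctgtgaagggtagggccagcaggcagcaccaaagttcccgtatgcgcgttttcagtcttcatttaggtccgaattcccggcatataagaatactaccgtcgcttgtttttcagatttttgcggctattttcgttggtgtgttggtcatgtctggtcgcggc

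HIST1H2BM held the octamer 48 bases before its start and 5 CCAAT words, HIST3H2A held 3 CCAAT words and no octamer, HIST1H3H held TATAAA 32 bases before its start and 2 CCAAT words, and HIST1H4E held none of the 3 words. These examples do not show whether a word goes with a decrease, which was not tested. A RefSeq promoter was matched for 65 of the 75 genes. The octamer, the site of POU-domain factors such as OCT1, was in 25 of the 65 (38.5%), against 1.8% of all 35116 promoters of the same length. It was in 11 of 16 H2A and 14 of 18 H2B promoters and in 0 of the 6 H1, 12 H3 and 13 H4 promoters. CCAAT was in 55 (84.6%), against 34.6% of all promoters, and in every H1, H2A, H2B and H3 promoter but in 3 of 13 H4 promoters. TATAAA on the sense strand was in 38 (58.5%), against 7.3% of all promoters.

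The 6 libraries held 18568002 to 36234784 counts. WDR77, the targeted gene, was at 15.0, 14.0 and 12.7 CPM (the count of a gene relative to its library's scaled total) in knockdown replicates 1 to 3 and at 49.3, 47.2 and 36.7 in control replicates 1 to 3 (log2 fold change -1.67, SE 0.16, edgeR adjusted p 0.00131). All 9 luminal prostate markers passed the filter on low counts and had estimates below 0. Of the 9, 4 were lower in the knockdown, against 4.88% of all tested genes. In a fit paired by replicate number 6 were lower, against 14.9%. Their summed level was 4305 to 4891 CPM in the knockdown and 7411 to 8757 CPM in control. The 9 markers of basal, stromal, immune and endothelial cells summed to 20.7 to 38.98 CPM in the knockdown and 12.5 to 19.6 CPM in control. KRT5 was at 0 in all libraries, and TP63, PTPRC, PECAM1 and COL1A2 were at or near 0. COL1A1 was at 5.32 to 14.3 CPM over the 6 libraries, and its groups overlapped. ACTA2 was at 2.60 to 2.96 CPM in control and 4.26 to 4.82 CPM in the knockdown. It was not called (log2 fold change 0.67, adjusted p 0.0750) except in the fit paired by replicate number (0.0204). Of the 9 markers, VIM was called higher in the knockdown (log2 fold change 2.35, adjusted p 0.0277). KRT14, at 0.666 to 1.11 CPM in control and 0 to 0.229 CPM in the knockdown, was called lower (adjusted p 0.0338). Both calls were lost in a fit with 1 library left out (adjusted p up to 0.0947 and 0.118). The part of these markers in the histone results was not tested.

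Histone mRNA, as far as it was counted, was lower in the knockdown. Summed over the 75 genes it was 5493, 5062 and 3720 CPM in control replicates 1 to 3 and 2848, 2466 and 1792 CPM in knockdown replicates 1 to 3. Every knockdown library lay below every control library, and the knockdown mean was 49.8% of the control mean. Within the numbered pairs the knockdown held 51.9%, 48.7% and 48.2% of the control level. In such bulk samples, fewer cells in S phase and less histone mRNA per cell cannot be told apart. Whether the kit selected poly(A) RNA is not given, so histone mRNA without a poly(A) tail may be undercounted. The same limit holds for the class sums and the levels per length below.

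By class, the knockdown levels ranged from 41.1% to 61.9% of control. Summed H1 mRNA in the knockdown was 41.1% of control, H4 was 41.1%, H3 was 47.0%, H2A was 57.7% and H2B was 61.9%. For H1, H2B, H3 and H4 the knockdown and control libraries did not overlap. For H2A they did, with 302 to 530 CPM in the knockdown and 525 to 980 CPM in control. Within the histone total, H2B took 25.5% to 28.0% of it in control and 32.0% to 36.3% in the knockdown, and H1 took 27.2% to 30.4% and 22.2% to 25.9%. These sums have no test.

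**Figure D1:**
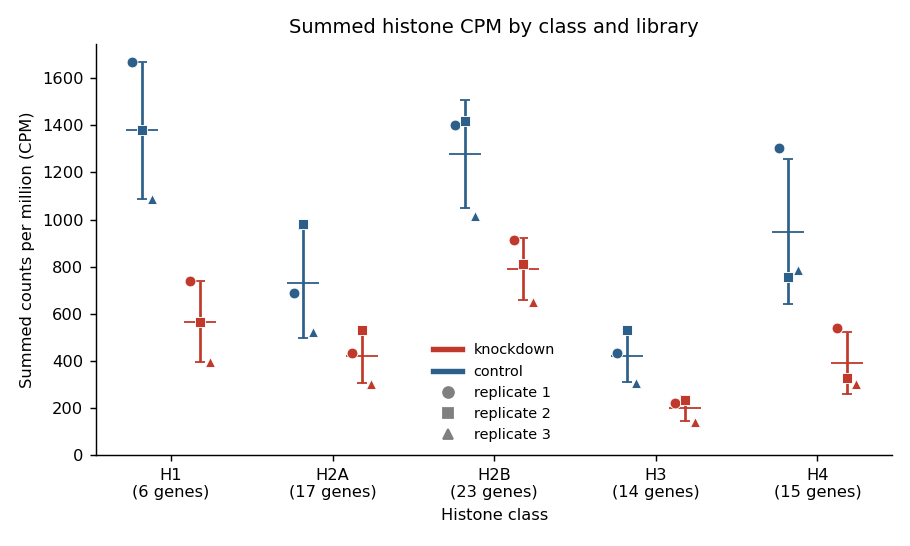
Summed CPM (vertical axis) of each histone class (horizontal axis) in each library, with the mean and SD over 3 libraries per group. The knockdown points lie below the control points in each class except H2A, where 530 CPM in knockdown replicate 2 lies above 525 CPM in control replicate 3.

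The test of single genes covered 54 of the 75, and 21 had too few reads, 5 of them (HIST1H2AA, HIST1H3D, HIST1H4F, HIST1H4L and HIST1H4G) with 0 reads in every library. Of the 54, 22 were lower in the knockdown at an edgeR adjusted p under 0.05 (40.7%), and 0 were higher. Over all 21101 tested genes, 4.88% were lower and 2.72% were higher. At an unadjusted p under 0.05, 34 histone genes were lower and 2 higher, against 14.3% and 10.4% of all tested genes. DESeq2, which gave 53 histone genes an adjusted p, called 31 lower and 1 higher, against 7.38% and 4.13% of its 20190 genes. The median log2 fold change (knockdown minus control, here and below) of the 54 genes was -0.92, against 0.00 for all tested genes, and 49 were below 0 and 5 above. For 35 histone genes the 3 knockdown libraries all lay below the 3 control libraries, against 17.0% of all tested genes, and for 1 they all lay above, against 13.4%. Of the 54, 43 (79.6%) were lower in all 3 numbered pairs, against 28.98% of all tested genes.

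A fit that paired the libraries by replicate number called 38 histone genes lower and 2 higher, against 14.9% and 11.2% of all tested genes. The 22 genes called without the pairing were all among the 38. Both genes called higher, HIST3H2A and HIST1H2BE, are described below. The count of 22 depended on single libraries. It was 1 without knockdown replicate 2 (HIST1H3I), 7 without knockdown replicate 3, 13 without control replicate 1 and 17 to 23 without any other library. The number lower in the whole table also fell, from 1029 to 329, 447 and 493 in the first 3 of these fits. It was 648 to 923 in the others. In those first 3 fits the histone median was -1.03, -0.82 and -0.84. With upper-quartile scaling 18 were lower and 0 higher, the median of all tested genes moved to 0.12, and 44.7% of all calls in the table were lower, against 64.2% in the fit used here.

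**Figure D2:**
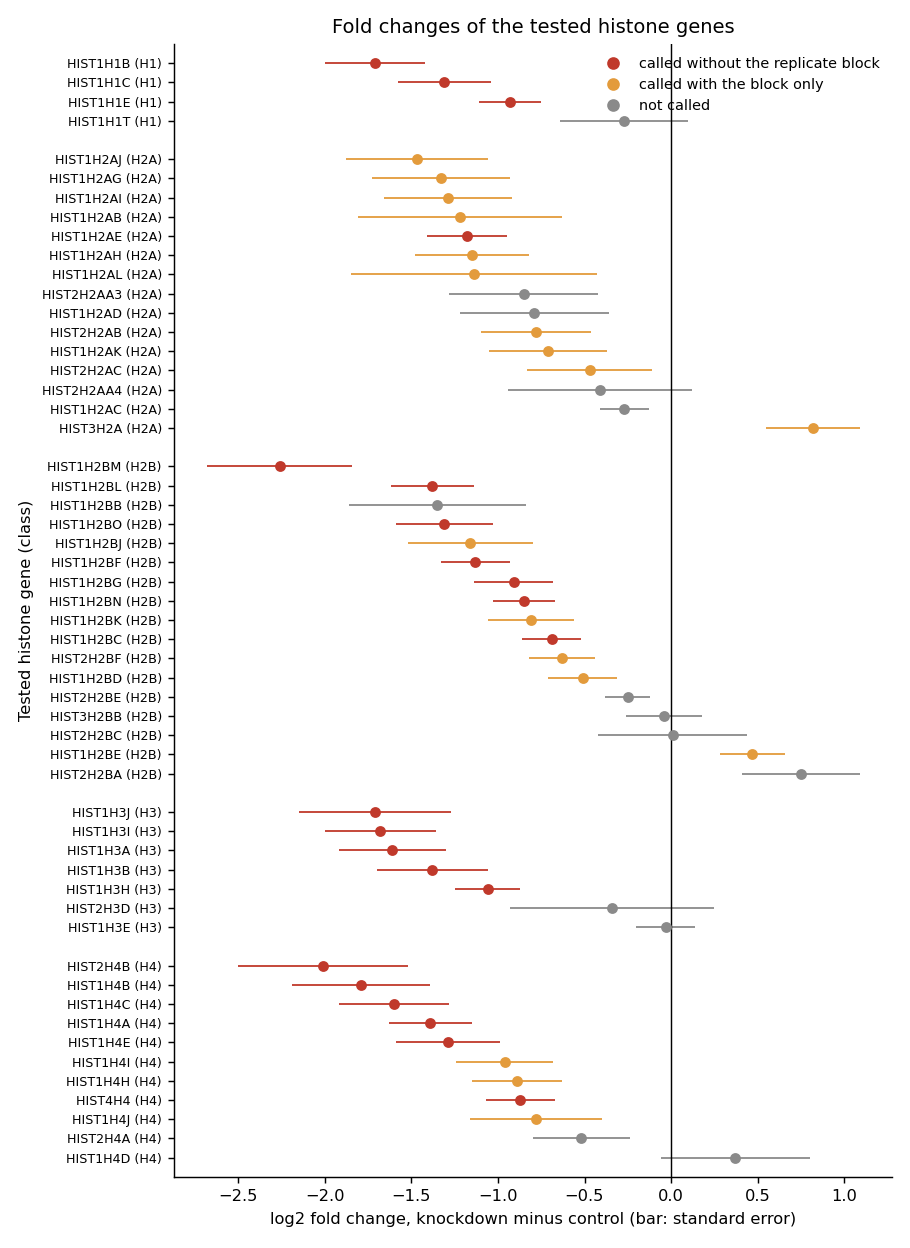
Log2 fold change (horizontal axis, bar: standard error) of the 54 tested histone genes (vertical axis), grouped by class and coloured by whether they were called with or without pairing by replicate number. The points run from -2.26 for HIST1H2BM to 0.82 for HIST3H2A, with 49 left of 0 and 5 right of it.

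Linker histone H1 fell in 3 of 4 tested genes, HIST1H1C, HIST1H1B and HIST1H1E. For each class count from here on, the share lower over all tested genes was 4.88%, and 14.9% with pairing. HIST1H1C, which encodes H1.2, was at 983, 680 and 595 CPM in control replicates 1 to 3 and at 406, 302 and 201 CPM in knockdown replicates 1 to 3. The groups did not overlap (log2 fold change -1.31, SE 0.27, adjusted p 0.0226). HIST1H1B, which encodes H1.5, had the largest decrease of the class. Its levels were 364, 313 and 208 CPM in control and 120, 95.8 and 54.6 CPM in the knockdown (log2 fold change -1.71, SE 0.29, adjusted p 0.0116). HIST1H1E, which encodes H1.4, was at 319, 384 and 285 CPM in control and 212, 167 and 141 CPM in the knockdown (log2 fold change -0.93, SE 0.18, adjusted p 0.0176). HIST1H1T, the testis form of H1, was near the detection limit at 0.482 to 1.43 CPM over the 6 libraries, and its groups overlapped (log2 fold change -0.27, adjusted p 0.703). The other 2 members, HIST1H1A and HIST1H1D, had at most 11 reads in a library and were not tested.

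Histone H4 fell in 6 of 11 tested genes, and with pairing in 9 of 11. HIST1H4C was at 331, 173 and 191 CPM in control and 112, 64.2 and 52.8 CPM in the knockdown (log2 fold change -1.60, SE 0.32, adjusted p 0.0205). HIST1H4E was at 300.1, 154 and 200.2 CPM in control and 129, 63.3 and 75.7 CPM in the knockdown (log2 fold change -1.29, SE 0.30, adjusted p 0.0364). HIST1H4A had the smallest p of the class, with 27.2, 25.2 and 20.4 CPM in control and 12.3, 9.03 and 6.41 CPM in the knockdown (log2 fold change -1.39, SE 0.24, adjusted p 0.0118). In all 3 genes every knockdown library lay below every control library, and replicate 1 was the highest of its group. HIST1H4B, with a log2 fold change of -1.79, and HIST4H4, the lone gene of cluster 4, with -0.87, also passed. HIST1H4H, at 111 to 208 CPM in control and 65.7 to 107 CPM in the knockdown, did not pass without pairing and passed with it (log2 fold change -0.89, adjusted p 0.0680, paired 4.23e-05). It also passed with DESeq2 (0.0121), and over the fits with 1 library left out its adjusted p ran from 0.0369 to 0.221.

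Nearly all H4 genes encode the same protein, so the copies are told apart by their mRNAs. HIST2H4B was also called (log2 fold change -2.01, adjusted p 0.0400), with 1.01 to 2.16 CPM in control and 0.162 to 0.549 CPM in the knockdown. It reached the filter's minimum of 0.348 CPM in all control but not in all knockdown libraries. It shares 97.2% of its 50-base windows with HIST2H4A, which did not pass (log2 fold change -0.52), so the split of reads between these 2 copies is uncertain. HIST1H4D was the 1 tested H4 gene above 0 (log2 fold change 0.37, SE 0.43, adjusted p 0.635), with 0.40 to 0.833 CPM in control and 0.428 to 0.962 CPM in the knockdown, so the groups overlapped.

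Histone H3 fell in 5 of 7 tested genes, and the same number passed with pairing. HIST1H3B had the highest level of the class, per length as well as in CPM, and was at 215, 274 and 138 CPM in control and 92.4, 103 and 45.5 CPM in the knockdown (log2 fold change -1.38, SE 0.32, adjusted p 0.0353). HIST1H3H was at 134, 142 and 98.7 CPM in control and 69.9, 62.2 and 47.3 CPM in the knockdown (log2 fold change -1.06, SE 0.19, adjusted p 0.0124). HIST1H3I was at 18.2, 19.1 and 11.6 CPM in control and 4.87, 7.22 and 2.98 CPM in the knockdown (log2 fold change -1.68, SE 0.32, adjusted p 0.0176). It was the only histone gene still called in every set of 5 libraries, with adjusted p at most 0.0423. HIST1H3A (-1.61) and HIST1H3J (-1.71) completed the 5, the latter at 0.268 to 1.83 CPM over all libraries. HIST1H3J reached the filter's minimum of 0.348 CPM in all control but not in all knockdown libraries.

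The other 2 tested H3 genes did not pass with or without pairing. HIST1H3E was at 33.6, 27.6 and 34.3 CPM in control and 37.2, 26.3 and 30.5 CPM in the knockdown, with groups that overlapped throughout (log2 fold change -0.03, SE 0.17, adjusted p 0.947). Its sign turned to 0.09 with upper-quartile scaling. HIST2H3D was at 9.93, 39.5 and 10.4 CPM in control and 11.5, 27.5 and 7.92 CPM in the knockdown (log2 fold change -0.34, SE 0.59, adjusted p 0.768) and was highest in replicate 2 of both groups. HIST2H3D shares 80.4% of its 50-base windows with the pseudogene HIST2H3DP1.

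Histone H2B fell in 7 of 17 tested genes, and with pairing in 11. HIST1H2BM had the largest decrease of any tested histone gene. It was at 43.7, 33.2 and 20.7 CPM in control and 11.6, 5.14 and 3.85 CPM in the knockdown, a 4.78-fold difference of the fitted means with no overlap (log2 fold change -2.26, SE 0.42, adjusted p 0.0148). HIST1H2BL was at 59.9, 69.7 and 42.0 CPM in control and 27.4, 22.5 and 15.9 CPM in the knockdown (log2 fold change -1.38, SE 0.24, adjusted p 0.0121). HIST1H2BF was at 66.7, 66.8 and 54.2 CPM in control and 37.5, 26.4 and 21.8 CPM in the knockdown (log2 fold change -1.13, SE 0.20, adjusted p 0.0135). HIST1H2BC, with 133 to 198 CPM in control and 91.0 to 119 CPM in the knockdown, had a smaller estimate (log2 fold change -0.69, SE 0.17, adjusted p 0.0458). HIST1H2BO, HIST1H2BG and HIST1H2BN were the other 3 called, with log2 fold changes of -1.31, -0.91 and -0.85.

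HIST2H2BE, the H2B gene with the highest CPM, was not called, with or without pairing. It was at 274, 274 and 231.2 CPM in control and 224, 230.6 and 202 CPM in the knockdown, so that each knockdown library lay below each control library (log2 fold change -0.25, SE 0.13, adjusted p 0.263, paired 0.0855). Its transcript model is 2194 bases long, and a poly(A) signal lies in the last 50 bases of its annotated 3' end. HIST1H2BD was at 99.2 to 162 CPM in control and 74.3 to 105 CPM in the knockdown and passed with pairing and with no filter on low counts (log2 fold change -0.51, adjusted p 0.152, paired 0.0051, unfiltered 0.0326). The unfiltered fit had 1812 genes of the whole table lower, against 1029 with the filter. HIST3H2BB was at 10.3, 12.6 and 11.3 CPM in control and 7.92, 11.7 and 13.5 CPM in the knockdown, with no consistent direction over the pairs (log2 fold change -0.04, SE 0.22, adjusted p 0.929). HIST2H2BC (0.01) and HIST2H2BA (0.75, adjusted p 0.215), both under 2 CPM in every library, had estimates above 0 with groups that overlapped.

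HIST1H2BE was the 1 histone gene whose 3 knockdown libraries all lay above the 3 control libraries. It was at 8.58, 11.1 and 7.88 CPM in control and 12.5, 13.9 and 11.8 CPM in the knockdown (log2 fold change 0.47, SE 0.19, adjusted p 0.154, paired 0.0238). Its model in the count table, chr6:26172059-26184655, starts 11702 bases before the RefSeq start of the gene. It overlaps a gene on the opposite strand, RP1-221C16.8, and the strand setting of the counting is not given in the sources used here.

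Histone H2A had 1 called gene of 15, HIST1H2AE, at 90.0, 67.4 and 59.6 CPM in control and 42.6, 26.4 and 26.6 CPM in the knockdown (log2 fold change -1.18, SE 0.23, adjusted p 0.0176). With pairing 10 were lower. Over all tested genes 4.88% were lower without pairing and 14.9% with it. The class median was -0.85, against -0.81 for H2B, -0.96 for H4, -1.12 for H1 and -1.38 for H3, and the SEs of the 15 genes ran from 0.14 to 0.71. The H2A median was -0.32 without control replicate 2, and the H1 median was -0.69 with DESeq2 and -0.66 with no filter on low counts, where more genes enter it. HIST1H2AG was at 105, 172 and 70.8 CPM in control and 48.9, 66.7 and 23.03 CPM in the knockdown (log2 fold change -1.33, SE 0.40, adjusted p 0.0776, paired 5.19e-06). HIST1H2AI was at 99.2, 176 and 69.4 CPM in control and 52.4, 61.8 and 26.9 CPM in the knockdown (log2 fold change -1.29, SE 0.37, adjusted p 0.0690, paired 1.3e-05). In both genes the groups did not overlap, and replicate 2 was the highest library of each group.

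HIST1H2AJ, the H2A partner of HIST1H2BM, was at 24.0, 52.8 and 18.2 CPM in control and 11.2, 15.8 and 7.01 CPM in the knockdown (log2 fold change -1.47, SE 0.41, adjusted p 0.0635, paired 1.99e-05). It shares 83.7% of its 50-base windows with HIST1H2AI, so reads of these copies may have been split between them. HIST1H2AC, the H2A gene with the highest CPM, was at 148, 149 and 123 CPM in control and 131, 112 and 105 CPM in the knockdown, and its groups overlapped (log2 fold change -0.27, SE 0.14, adjusted p 0.253, paired 0.0573).

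HIST3H2A had the highest estimate of the 54 genes. It was at 13.5, 20.4 and 18.9 CPM in control and 19.4, 41.5 and 31.9 CPM in the knockdown, higher in the knockdown in each of the 3 pairs, while knockdown replicate 1 lay below control replicate 2 (log2 fold change 0.82, SE 0.27, adjusted p 0.104). It passed with pairing (adjusted p 0.00083), with DESeq2 (0.0281), without the filter on low counts (0.00097), and in the fit without knockdown replicate 1 (0.0308). Over the fits with 1 library left out its adjusted p ran up to 0.331. The unfiltered fit called more genes throughout, with 1336 of the whole table higher, against 574 with the filter. There the adjusted p of WDR77 was 4.1e-15, against 0.00131 with the filter. HIST3H2A has few windows in common with other genes (0.6% of its 50-base windows).

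**Figure D3:**
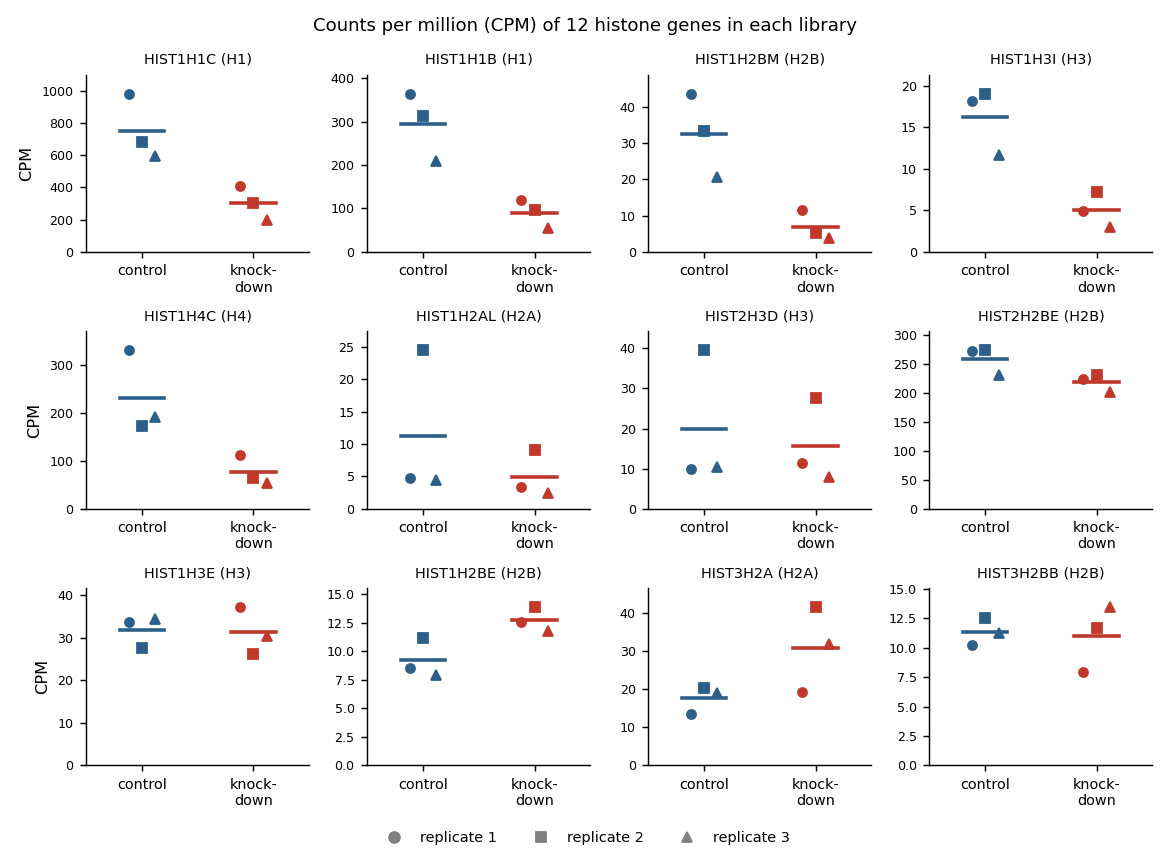
CPM (vertical axis) of 12 histone genes in each control and knockdown library, points by replicate and lines at the group means. HIST1H1C, HIST1H1B, HIST1H2BM, HIST1H3I and HIST1H4C are lower in all 3 knockdown libraries, HIST1H2AL and HIST2H3D are highest in replicate 2 of both groups, and HIST1H2BE is higher in all 3 knockdown libraries.

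The filter on low counts left a few members at its edge. Just inside were HIST1H2BB, HIST2H2AA4 and HIST1H4D, with mean levels of 0.349, 0.553 and 0.630 CPM, and just outside were HIST2H3C, HIST2H2BB and HIST1H4K, with 0.399, 0.332 and 0.324 CPM. The 21 untested genes had at most 30 reads in a library. HIST1H2AD, HIST1H2BB, HIST1H3J and HIST2H4B reached the filter's minimum of 0.348 CPM in all 3 control libraries but not in all 3 knockdown libraries, and 2 of the 4, HIST1H3J and HIST2H4B, are among the 22 calls.

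Per length of transcript model, the control levels spanned a wide range. HIST1H1C stood first at 1172 ± 318 RPKM (reads per kilobase scaled to library size, SD, n = 3), followed by HIST1H4C at 533 ± 200 RPKM, HIST1H3B at 509 ± 165, HIST1H1E at 437 ± 66.7 and HIST1H1B at 433 ± 117 RPKM. The last 4 did not differ beyond their spread. The 10 genes with the highest CPM held 57.3% of the histone total over the 6 libraries, and HIST1H1C alone held 14.8%.

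By cluster, cluster 1 had 20 of its 40 tested genes lower, with a median log2 fold change of -1.16. Cluster 2 had 1 of 11 lower, HIST2H4B, with a median of -0.47, and with pairing 4. Over all tested genes 4.88% were lower without pairing and 14.9% with it. HIST2H4B reached the minimum of the filter on low counts in all control but not in all knockdown libraries. Cluster 3 had 0 of 2 lower, HIST3H2A at 0.82 and HIST3H2BB at -0.04. In cluster 2, 9 of 11 genes were below 0. The difference between clusters was not tested.

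The members were also split by length, by 3' end and by shared sequence. The 17 tested genes with models over 1000 bases had a median of -0.87, 7 of them lower, and the 37 shorter genes had -1.15, 15 of them lower. The split by poly(A) signal took genes with an annotated 3' untranslated region of at least 50 bases. The 14 tested genes with a signal in its last 50 bases had a median of -0.85 with 4 lower. The 16 without had -0.92 with 9 lower. The 24 tested genes with no annotated region of that length had -1.19 with 9 lower. The 37 tested genes sharing at most 20% of their 50-base windows with another gene had a median of -1.14 with 20 lower, and the 16 sharing more had -0.75 with 2 lower. Among H2A and H2B genes with a promoter entry, the 20 tested with the octamer had a median of -1.02 with 6 lower. The 9 without had -0.71 with 2 lower. For all of these counts the share lower over all tested genes was 4.88%. Each split is a description of the estimates, with no test. Counting may also be affected by gene models that overlap, which 17 members had, 12 of them tested. Of the 22 called genes these were HIST1H2BN, HIST1H3J and HIST2H4B, each overlapped by another histone gene.

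Many H2A and H2B genes lie head to head and share the stretch of DNA between them. With starts at most 500 bases apart, 14 such pairs were found, 13 of them an H2A with an H2B gene, and in 11 both genes were tested. Both partners were below 0 in 9 of the 11, both were called lower in 2 (HIST1H2BG with HIST1H2AE, and HIST1H3J with HIST1H2BO) and both in 6 with pairing. Taken singly, 4.88% of all tested genes were lower, and 14.9% with pairing. HIST1H3J reached the minimum of the filter on low counts in all control but not in all knockdown libraries, and its model overlaps HIST1H2AM. Partners did not always have the same estimate. HIST1H2BM, at -2.26, starts 304 bases from HIST1H2AJ, at -1.47, and the HIST1H2BM promoter printed above spans most of the stretch between them. HIST3H2A, at 0.82, starts 234 bases from HIST3H2BB, at -0.04. HIST1H2BC, at -0.69, lies beside HIST1H2AC, at -0.27. The differences within pairs of genes were not tested.

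Which library was highest differed by class, and it was often the same number in both groups. Replicate 2 was the highest library of both groups in 10 of 15 tested H2A genes (66.7%) and in 4 of 7 H3 genes, but in 0 of 11 H4 genes, against 17.6% of all tested genes. Replicate 1 was the highest of both groups in 7 of 11 H4 genes and 2 of 15 H2A genes, against 22.8% of all tested genes. HIST1H2AL was at 4.70, 24.5 and 4.37 CPM in control and 3.32, 9.11 and 2.47 CPM in the knockdown, so that knockdown replicate 2 lay above control replicates 1 and 3. HIST1H2AB was similar, at 12.8, 38.6 and 8.25 CPM in control and 7.12, 14.2 and 3.98 CPM in the knockdown. Both passed with pairing (adjusted p 0.00253 and 0.00017), where the unpaired fit gave 0.356 and 0.241.

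**Figure D4:**
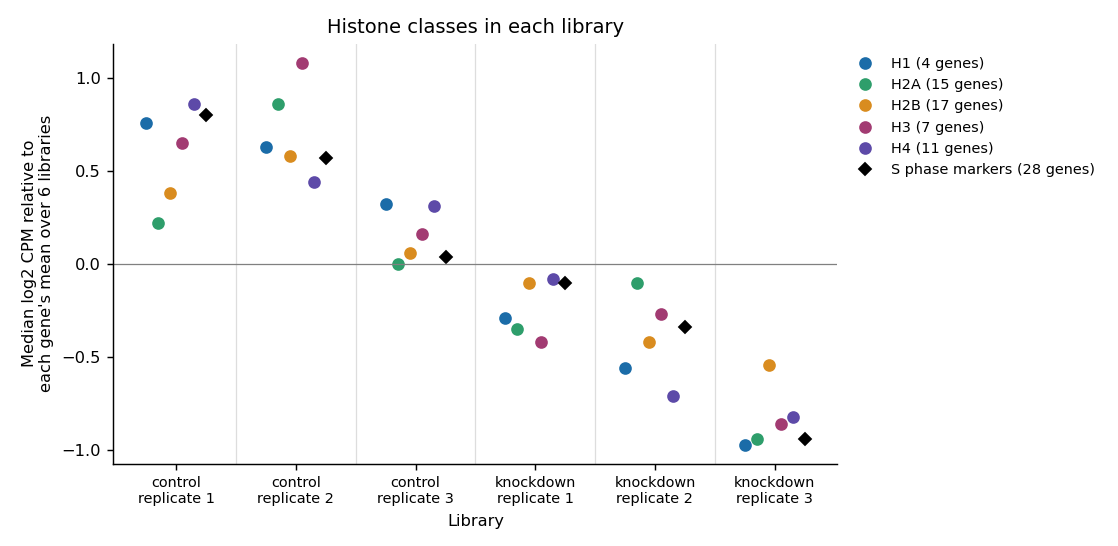
Median over the tested genes of each class of log2 CPM relative to the gene's own mean (vertical axis) in each library (horizontal axis), with 28 S phase markers as diamonds. H2A (green) is highest in replicate 2 of both groups (0.86 in control, -0.10 in the knockdown) and H4 (violet) in replicate 1 (0.86 and -0.08).

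Genes of DNA replication moved with the histone genes. Of 28 S phase markers, 11 were lower, against 4.88% of all tested genes, and 0 were higher. The markers included the MCM helicase subunits, GINS and the ribonucleotide reductase subunit RRM2. With pairing 27 were lower, against 14.9% of all tested genes. The median log2 fold change was -0.89, against -0.92 for the histone genes. The markers summed to 3755, 3063 and 2124 CPM in control replicates 1 to 3 and 1932, 1619 and 1115 CPM in knockdown replicates 1 to 3. The summed levels of the groups did not overlap. Gene by gene this held for 18 of the 28, against 17.0% of all tested genes. Replicate 1 was the highest of both groups in 23 of the 28 and in 16 of the 54 histone genes, against 22.8% of all tested genes. The part of the share of cells in S phase in the histone results was not tested.

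The genes that make and remove histone mRNA had a median nearer 0. Of 31 such genes 30 were tested, 4 were lower and 1 was higher, with a median log2 fold change of -0.26. Over all tested genes 4.88% were lower and 2.72% higher. With pairing 10 were lower and 1 higher, against 14.9% and 11.2% of all tested genes. With upper-quartile scaling 1 was lower.

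Among the 7 tested genes of histone gene transcription, CDK2, the kinase that with cyclin E activates the coactivator NPAT, was the 1 called without pairing, at 114, 82.1 and 59.7 CPM in control and 51.7, 35.1 and 21.4 CPM in the knockdown (log2 fold change -1.24, SE 0.32, adjusted p 0.0496). NPAT itself was at 60.9, 49.5 and 48.6 CPM in control and 55.3, 45.4 and 46.1 CPM in the knockdown (log2 fold change -0.12, SE 0.15, adjusted p 0.669). CASP8AP2 (FLASH), which works with NPAT at the histone locus body and in mRNA processing, was at 19.2 to 25.2 CPM in control and 17.1 to 18.7 CPM in the knockdown (log2 fold change -0.30, adjusted p 0.270). The sign of NPAT turned with upper-quartile scaling, where it was 0.01. With pairing 2 of the 7 were lower, CDK2 and the cyclin E gene CCNE2 (log2 fold change -0.84, adjusted p 0.136, paired 0.000234). The shares of all tested genes were 4.88% without pairing and 14.9% with it.

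Of 16 tested genes of 3' end formation, 3 were lower, and 7 with pairing, against 4.88% and 14.9% of all tested genes. NCBP1, the large subunit of the nuclear cap-binding complex, was at 127, 117 and 105 CPM in control and 68.9, 69.7 and 67.1 CPM in the knockdown (log2 fold change -0.76, SE 0.12, adjusted p 0.00824). CPSF3, the endonuclease that cuts histone pre-mRNA after the stem-loop, had a log2 fold change of -0.62 (SE 0.15, adjusted p 0.0431), and CSTF2, a cleavage stimulation subunit, had -0.57 (SE 0.14, adjusted p 0.0381). SLBP, the stem-loop binding protein, was at 128, 92.8 and 85.3 CPM in control and 70.4, 65.5 and 51.0 CPM in the knockdown, with no overlap, and lay just outside the threshold (log2 fold change -0.71, SE 0.19, adjusted p 0.0510, paired 0.000378). The genes particular to the U7 particle of histone mRNA processing did not pass with or without pairing: LSM10 (-0.41), LSM11 (-0.27) and ZNF473 (-0.08), the last of these at 0.04 with upper-quartile scaling. RNU7-1, the U7 RNA, was at 0 to 0.0571 CPM and was not tested.

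Of 6 tested genes of histone mRNA decay, the uridylyltransferase gene ZCCHC11 was higher, at 67.2, 71.2 and 61.8 CPM in control and 97.6, 91.8 and 86.6 CPM in the knockdown (log2 fold change 0.46, SE 0.12, adjusted p 0.0478). The share higher over all tested genes was 2.72%. The exonuclease gene ERI1, which trims the stem-loop end, was at 30.1 to 45.1 CPM in control and 29.9 to 37.3 CPM in the knockdown (log2 fold change -0.11, adjusted p 0.755) and at 0.02 with upper-quartile scaling. The decay genes had a median of 0.03, against -0.25 for transcription and -0.38 for 3' end formation. Each of the 4 lower calls except NCBP1, and the 1 higher call, was lost in the fit without at least 1 library: the largest adjusted p over those fits was 0.0460 for NCBP1, 0.159 for CDK2, 0.162 for CPSF3, 0.145 for CSTF2 and 0.149 for ZCCHC11.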

How the data were processed

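RNA of 3 knockdown and 3 control LNCaP libraries was extracted with Trizol and sequenced after preparation with a TruSeq RNA kit, per the labels' protocols. The authors deposited whole-number read counts per gene with each gene's exonic length. Per the submitters' processing notes they used bcl2fastq, STAR 2.5, featureCounts from Subread 1.6.5, edgeR 3.20.8 and the hg38 build. The annotation release, the strand setting and the treatment of multi-mapping reads are not given in the sources used here, and reads of near-identical histone copies may have been lost or split. Whether the kit selected poly(A) RNA is not given either.

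Computed here from the deposited counts: edgeR 4.0.16 in R 4.3.3, with TMM scaling, filterByExpr by group and a two-sided quasi-likelihood F test over all 21101 genes that passed, adjusted by Benjamini-Hochberg. Genes with an adjusted p under 0.05 count as changed, and every adjusted p printed is from this test unless another is named. CPM and RPKM use the TMM-scaled library totals and the deposited lengths. Alternatives were RLE and upper-quartile scaling, no filter, DESeq2 1.42.0, limma-voom (limma 3.58.1), thinned counts, a replicate block and leaving out each library. The script was tested on simulated data. Stem-loops and shared 50-base windows were read from GENCODE 29 transcripts, and promoters from RefSeq on GRCh38.p14.

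The series design text calls the replicates biological. Deviations from the group mean correlated between same-numbered libraries at 0.554, 0.381 and 0.358, and between others at -0.39 to 0.0602. The numbers were therefore taken to pair the libraries. The main fit and the fits with 1 library left out were nevertheless unpaired. Paired counts are given where they differ for a class, and paired p values for genes described singly whose call changed. Not every gene called only with pairing is named. The members and lists were chosen with earlier results of these data known. The genes named were, per class, the 3 tested genes with the highest mean CPM and the 2 with the smallest p, every tested gene above 0, and those at the edge of the filter. From the list of histone mRNA genes these were the called genes and SLBP, NPAT, CASP8AP2, ZNF473, LSM10, LSM11 and ERI1. Other members were named after their values were seen, among them HIST1H2BM, HIST1H2AL, HIST1H2AB, HIST2H3D, HIST2H4B and HIST3H2BB.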

Additional observations from a re-analysis of the deposited data

How the results depend on the processing

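The 22 lower calls became 38 both with no filter on low counts and with the replicate block, and 1 to 23 when 1 library was left out. With no filter 70 histone genes entered the fit, against 54 with it. The whole table had 1029 lower calls, 1812 with no filter, 3148 with the replicate block and 722 with upper-quartile scaling. With 1 library left out it had 329 to 923. The 0 higher histone calls became 1 with DESeq2, 1 with no filter, 2 with the replicate block, and 0 to 1 with a library left out. The whole table had 574 higher calls, 834 with DESeq2, 1336 with no filter and 2358 with the replicate block. With a library left out it had 168 to 500. The summed histone level had a log2 difference of -1.01, which was -0.89 with upper-quartile scaling and -1.17 to -0.84 with a library left out. The histone mRNA list had 4 lower calls, 10 with the replicate block, 1 with upper-quartile scaling and 1 to 3 with a library left out. Its 1 higher call became 0 with no filter and 0 with any library left out. The causes were not tested, except that a fit of 5 libraries has fewer samples.

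The sign of HIST2H2BC (0.01) turned with DESeq2 (-0.02), limma-voom (-0.05) and the replicate block (-0.09), and ran from -0.65 to 0.24 with 1 library left out. HIST1H3E (-0.03) turned with upper-quartile scaling (0.09) and ran from -0.17 to 0.09 with 1 library left out. NPAT, ZNF473 and ERI1 turned with upper-quartile scaling (0.01, 0.04 and 0.02) and without control replicate 1, and with 1 library left out ran from -0.22 to 0.04, from -0.15 to 0.05 and from -0.24 to 0.11. The median over the tested histone genes lay between -1.11 and -0.80 in every setting, and each class median kept its sign, with the smallest at -0.32 for H2A without control replicate 2. The WDR77 call was kept in every setting. Under the replicate block 8 of the 38 named genes gained a call and 0 lost one. The 21 untested genes had at most 30 reads in a library.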
